A study of Mus musculus with 3 samples.

Results

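The genes described here encode oxidative phosphorylation, the machinery by which mitochondria turn electrons from nutrients into ATP. They were taken by symbol from count tables of immune cells of the mouse intestinal muscularis, as every gene whose symbol starts with Nduf, Uqcr, Atp5, mt-Nd, mt-Co, mt-Cytb or mt-Atp, with Sdh followed by a, b, c or d, or with Cox followed by a digit from 4 to 8. The rule found 105 genes among 14148, of which 92 are encoded in the nucleus and 13 in mitochondrial DNA. Among the nuclear genes, 36 encode subunits of complex I, 4 of complex II, 8 of complex III, 15 of complex IV and 15 of complex V (ATP synthase), and 14 encode assembly or supercomplex factors. Ndufa4 was counted with complex IV, to which its protein belongs. A row named Atp5o.1, the only one for Atp5o among the members, had no match of its own in the annotation and was kept. The nuclear and the mitochondrial genes are described apart throughout.

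In all 3 libraries were sequenced with the 10x Genomics v2 kit, 1 for each of the time points naïve, 24 h and 72 h after intestinal manipulation, a surgical handling of the small bowel that inflames its muscle layer. All came from wild-type C57BL/6J mice aged 12 weeks, and each library pooled sorted CD45+ (immune) cells of the muscularis externa from 3 to 4 mice. The libraries held 652, 2211 and 1239 cells and 1865221, 10542346 and 5246731 unique molecular identifiers (UMIs, each counting 1 captured transcript), and each pair of libraries shared 1 cell barcode. As each time point is 1 library, no test between time points or cell groups was possible, and mice could not be told apart.

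Oxidative phosphorylation runs through 4 respiratory complexes and an ATP synthase in the inner mitochondrial membrane. Complex I takes electrons from NADH and complex II from succinate, complex III passes them to cytochrome c, complex IV passes them on to oxygen, and complex V uses the resulting proton gradient to make ATP. Mitochondrial DNA encodes core subunits of complexes I, III, IV and V, whereas complex II and all remaining subunits are encoded in the nucleus and imported. In macrophages (Mφs), inflammatory activation is known for a shift toward glycolysis, tissue-resident and repair-associated Mφs are known to rely more on mitochondrial respiration, and mature neutrophils are known for few mitochondria and a largely glycolytic energy supply.

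Levels are given as UMIs of a gene, or summed over genes, as counts per 1000000 UMIs (CPM) of a group of cells. Brackets after a level or ratio hold its exact 95% Poisson interval, which covers counting error alone, not the spread between mice. A gene is called higher or lower when its ratio of CPM is at least 1.5 or at most the inverse of 1.5, among genes whose mean over the compared groups is at least 50 CPM. The share of all such genes called in the same direction is given as a background. UMIs mark transcript 3′ ends, so levels were not divided by length, and the order of levels between genes can also reflect how well each 3′ end was captured. CPM is a share of the captured RNA, so a lower CPM does not tell less RNA of these genes from more RNA of others.

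Promoter sequences were examined because many nuclear members are known targets of NRF-1 and of ETS-family factors such as GABP. RefSeq promoters of GRCm38.p6, from 250 bases before to 50 after the transcript start, were matched for 75 of the 92 nuclear members. The NRF-1 letters (GCGC, any base, T, then GCGC), searched on both strands, stood in 20 of these promoters (26.67%) and in 5.188% of 27025 gene promoters. The ETS core CCGGAAG, also searched on both strands, stood in 21 promoters (28%), against 9.928% of all. Either motif was found in 48% of the members' promoters and in 13.99% of all promoters, and 5 members held both. The stretches below belong to members whose levels recur in the results, and capitals mark the matched motif letters. Cox6a1 (chr5:115348959-115349138, minus strand, the 180 bases before the start) holds NRF-1 matches at positions -162 and -117 and an ETS match at -16. Atp5k (chr5:108434420-108434479, minus strand) and Atp5g2 (chr15:102671060-102671119, minus strand) hold an NRF-1 match at -50 and -42. Uqcrh (chr4:116075071-116075130, minus strand) holds an ETS match at -10, and Cox7a2l (chr17:83514334-83514513, minus strand) holds neither in its 180 bases.
Cox6a1: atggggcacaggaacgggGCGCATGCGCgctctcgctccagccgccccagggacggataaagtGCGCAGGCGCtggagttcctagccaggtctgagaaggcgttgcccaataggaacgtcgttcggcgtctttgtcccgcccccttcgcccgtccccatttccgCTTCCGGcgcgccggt
Atp5k: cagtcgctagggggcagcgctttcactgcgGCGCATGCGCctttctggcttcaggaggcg
Atp5g2: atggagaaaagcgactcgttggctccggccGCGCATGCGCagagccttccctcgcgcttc
Uqcrh: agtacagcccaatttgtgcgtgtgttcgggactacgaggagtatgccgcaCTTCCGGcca
Cox7a2l: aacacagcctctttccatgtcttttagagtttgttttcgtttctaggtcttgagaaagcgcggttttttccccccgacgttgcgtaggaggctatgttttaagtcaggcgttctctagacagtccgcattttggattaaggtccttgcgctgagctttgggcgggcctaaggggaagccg
A match is a run of letters in this window and not a measured binding site.

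To place the genes in cell types, cells were clustered without the member genes and clusters were named from marker lists. The clusters comprised monocyte/Mφ-like cells (140, 1544 and 576 in the naïve, 24 h and 72 h libraries), T, NK or innate lymphoid cells (T/NK-like; 188, 71 and 136), B-like cells (277, 38 and 79), dendritic cell-like cells (DC-like; 20, 121 and 134) and neutrophil-like cells (408 at 24 h and 111 at 72 h). A further cluster of 29 cells at 24 h and 203 at 72 h, led by Ptgs2, Siglecf, Mmp9 and Il1r2, stayed unnamed and is called the Siglecf+ cluster. Of its 3 measured eosinophil markers, Siglecf stood at 390.1 CPM while Ccr3 and Prg2 were at 0, and its 8 neutrophil markers summed to 37324 CPM against 106361 in neutrophil-like cells of the same library. Groups under 20 cells in a library are not compared.

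The cell classes differed more in their mitochondrial than in their nuclear transcripts. At 72 h the nuclear members summed to 25663 CPM (25485–25842) in monocytes/Mφs, 24699.5 in T/NK-like cells, 26482 in B-like cells and 28853 in DC-like cells. Neutrophil-like cells stood below this narrow band at 16041 CPM (15396–16706) and the Siglecf+ cluster stood above it at 37243 (36422–38077). The 13 mitochondrial members lay between 23372 CPM in T/NK-like cells and 30078 in monocytes/Mφs, but at 5962 in neutrophil-like cells and 8368 in the Siglecf+ cluster. Nuclear UMIs per mitochondrial UMI were 0.853 in monocytes/Mφs, 2.69 in neutrophil-like cells and 4.45 in the Siglecf+ cluster. At 72 h, 79 nuclear members reached the minimum level in the class comparison, and 40 of them were highest in the Siglecf+ cluster while 64 were lowest in neutrophil-like cells. At 24 h monocytes/Mφs were highest for 26 of 78 and the Siglecf+ cluster for 18, while that cluster was also lowest for 17 and neutrophil-like cells for 52. In the naïve library 37 of 80 were highest in T/NK-like and 35 in DC-like cells, and 38 were lowest in B-like and 31 in monocyte/Mφ-like cells. Neutrophil-like cells and the Siglecf+ cluster were too few to enter the naïve comparison. No such counts over all genes are given, so these do not set the members apart from other genes. Against monocytes/Mφs at 72 h, the median ratio in the Siglecf+ cluster was 1.32 for members and 1.33 for all genes. At 24 h that cluster held 21150 UMIs in all, so its counts there rest on few UMIs per member.

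**Figure D1:**
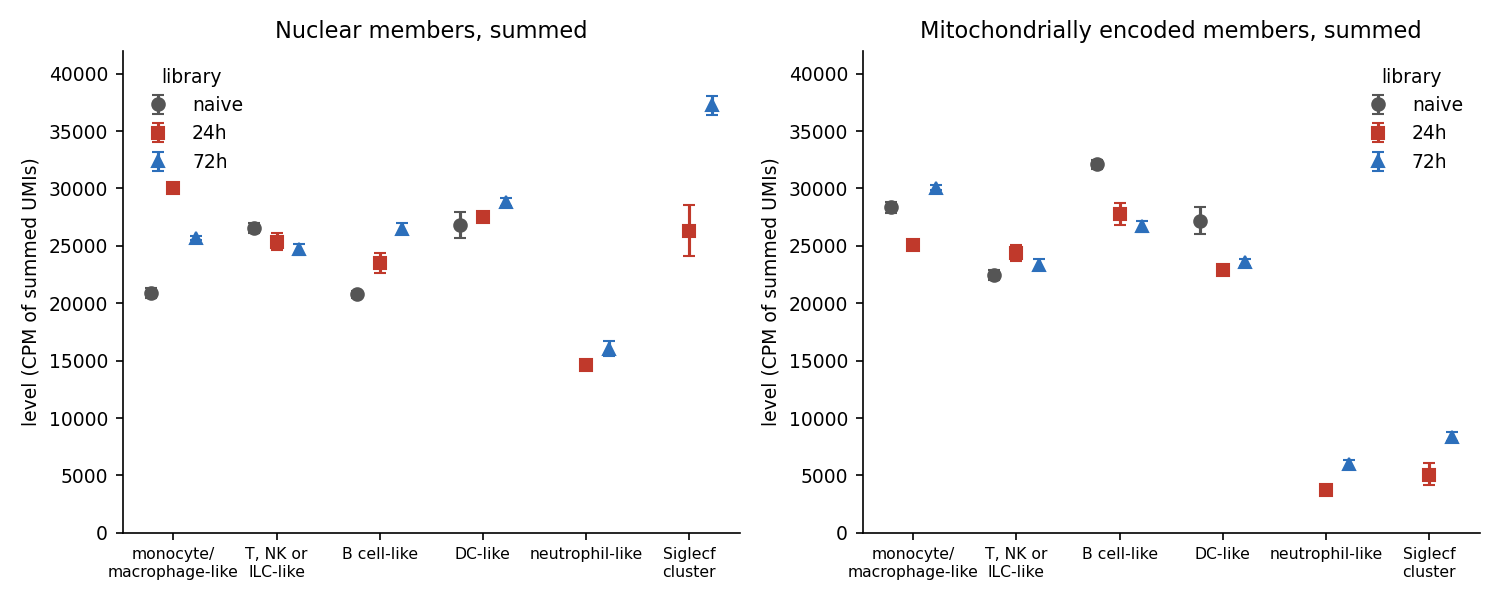
Summed CPM of the 92 nuclear (left) and 13 mitochondrial (right) oxidative phosphorylation genes by cell class, with points coloured by library and bars for the exact 95% Poisson interval (counting error only). At 72 h the nuclear sum spans 16041 CPM in neutrophil-like cells to 37243 in the Siglecf+ cluster, and these classes lie at 5962 and 8368 CPM for the mitochondrial genes.

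In monocytes/Mφs the nuclear members took a larger share of UMIs at 24 h than in the naïve library. The mitochondrial members took a smaller share. Cells were deeper at 24 h (median 5924.5 against 3310 UMIs), so a smaller share does not mean fewer UMIs per cell. The nuclear sum was 20883 CPM (20482–21290) in naïve cells, while it was 30084 (29971–30198) at 24 h and 25663 at 72 h. The mitochondrial sum ran the other way, with 28364 CPM (27896–28837) before manipulation, 25117 (25014–25221) at 24 h and 30078 (29885–30271) at 72 h. The nuclear level at 24 h was 1.44-fold (1.41–1.47) that of the naïve library, and the mitochondrial level was 0.886-fold (0.871–0.901). The class held different states at each time: the naïve cells were mostly the Cx3cr1+ and Cd206+ states, and those at 72 h mostly Cd206+ and Timp2+. Those at 24 h were mostly Fabp5+, Ly6c+, Ltc4s+ and Ccr2+ intermediate states, with a further 236 cells in a shallow unnamed state described below. The 6 B cell markers of the list summed to 3973 CPM in naïve monocytes/Mφs (none of them at 0), 293 at 24 h and 268 at 72 h, against 40051 in naïve B-like cells. Their part in the difference between time points was not tested. A comparison of naïve states without cells that held some of these markers is given with the states.

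Of the 92 nuclear members, 75 passed the minimum level in the comparison of 24 h with naïve. Among them 38 were called higher, against a background of 27.7% of 2431 genes, and 1 was called lower, against 12.6%. The direction was shared widely, since 70 of the 75 had a ratio above 1. Their median ratio was 1.52, while that of all tested genes was 1.17. By complex the summed ratio was 1.43 (1.38–1.49) for complex I, 1.502 (1.30–1.74) for II, 1.34 (1.26–1.42) for III, 1.53 (1.47–1.58) for IV and 1.51 (1.45–1.57) for V. The intervals of these complexes overlapped, apart from those of III against IV and V. A 2-fold threshold left 9 members called higher, a share close to the 10.4% of all tested genes.

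The largest ratios belonged to subunits of 3 different complexes. Cox5a (chr9:57521274-57532426), a subunit of complex IV, stood at 302 CPM in naïve cells, against 727 at 24 h and 497 at 72 h, a ratio of 2.41 (2.05–2.85) at 24 h. Ndufa12 (chr10:94198720-94221443), an accessory subunit of complex I, stood at 87.0, 209 and 111 CPM, 2.40-fold (1.77–3.33) higher at 24 h. Atp5g1 (chr11:96068852-96075670) encodes subunit c, which forms the rotating ring of ATP synthase, and stood at 249, 561 and 309 CPM, 2.25-fold (1.88–2.72) higher at 24 h. All 3 were highest at 24 h, and at 72 h their difference in CPM was smaller from the naïve than from the 24 h level. Cox5a was still 1.65-fold above the naïve library at 72 h. The other genes for subunit c moved less evenly: Atp5g3 stood at 111, 234 and 208 CPM and Atp5g2 at 447, 536 and 540.0. Sdha, the catalytic flavoprotein of complex II, stood at 115, 102 and 103 CPM, a ratio of 0.880 (0.673–1.17), while its partner Sdhb, the iron-sulfur subunit, stood at 134, 269.7 and 182 CPM.

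The members with the highest levels at 24 h were mostly higher then than in the naïve library, with Uqcrh as the exception among those of complexes I, III, IV and V named here. In complex IV, Cox4i1 stood at 1028, 1319 and 1407 CPM over naïve, 24 h and 72 h, Cox8a (chr19:7215153-7217616) at 943, 1316 and 1206, and Cox6b1 at 631, 912 and 749. Cox4i1 was thus the one of these that was higher at 72 h than at 24 h. In complex V, Atp5e (the epsilon subunit) stood at 797, 1104 and 1077 CPM, Atp5l at 771, 1051 and 1019, and Atp5h at 536, 711 and 691. The most abundant members of complex I at 24 h were Ndufa2 at 457, 611 and 554 CPM, Ndufa13 at 372, 433 and 402, and Ndufb8 at 227, 407 and 259.5. In complex III they were Uqcrq at 332, 619.9 and 449.9 CPM, Uqcrb at 356, 571 and 399, and Uqcrh, which is described with Cox7a2l. The isoforms of heart and skeletal muscle were near 0 in monocytes/Mφs: Cox7a1 stood at 2.02, 12.3 and 6.46 CPM and Cox6a2 at 0, 1.56 and 1.94, and Cox8b and Cox8c had no row in the tables used here.

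From 24 h to 72 h the nuclear sum of monocytes/Mφs was 0.853-fold (0.846–0.860) and the mitochondrial sum 1.197-fold (1.19–1.21). Of 75 tested nuclear members 12 were called lower, against a background of 16.8%, and 1 higher, against 7.83%, so the share called lower was near that of all genes. Their median ratio was 0.779 and that of all genes 0.885, and 65 of the 75 were below 1. Complexes I and II had the lowest summed ratios, 0.810 (0.798–0.823) and 0.791 (0.745–0.839), and complex III the highest, 0.913 (0.892–0.936). Apart from Ndufa12 (0.533) and Atp5g1 (0.550), the lowest ratio was that of Ndufb6, an accessory subunit of complex I, at 0.541 (0.481–0.607). The comparisons of monocytes/Mφs share libraries, so their ratios are not independent. At 72 h the class still stood 1.23-fold (1.204–1.25) above the naïve library for the nuclear sum and 1.06-fold (1.04–1.08) for the mitochondrial sum. In that comparison 5 of 74 members were called higher, a share below the background of 8.96%, and 0 were called lower, with a background of 7.35%. The 3 largest ratios were those of Atp5g3 (1.87), Atp5k (1.73, from 168 to 291 CPM) and Cox5a (1.65), and the smallest was Ndufa5 at 0.725 (0.549–0.971).

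**Figure D2:**
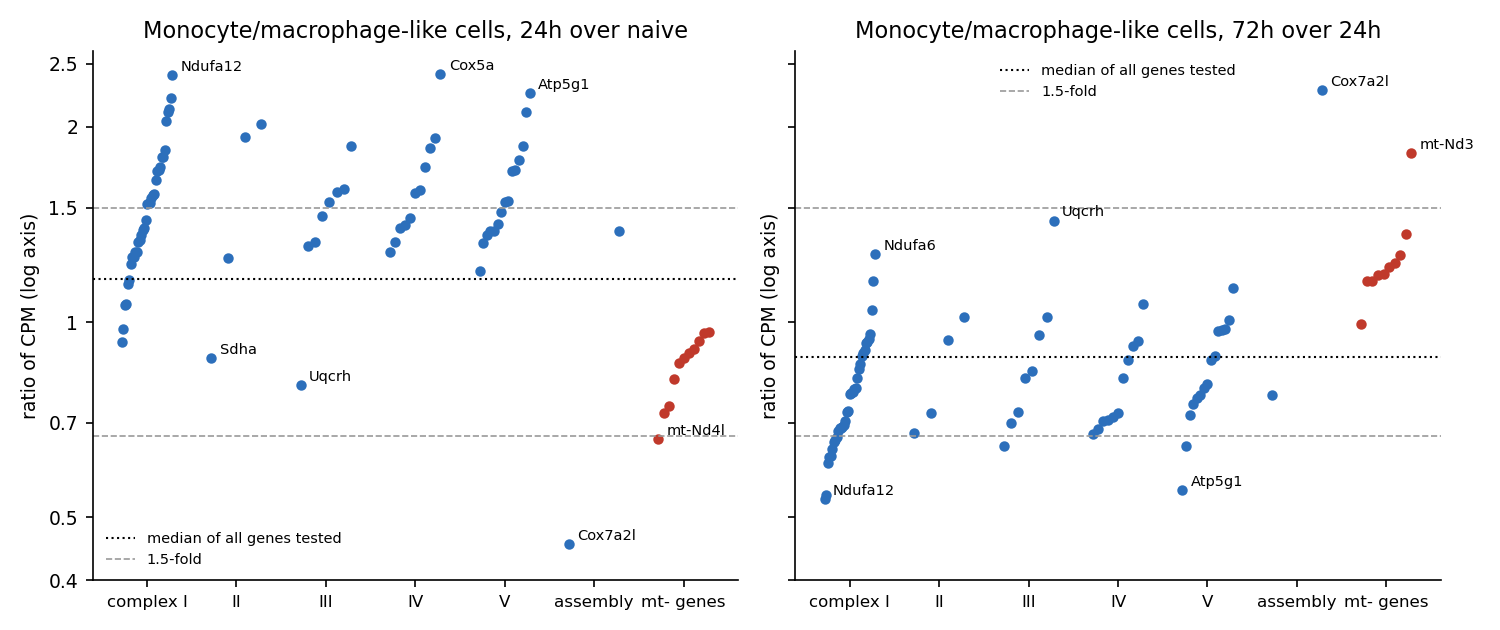
Ratio of CPM (log axis) for each nuclear and mitochondrial member that passed the minimum level, by complex, for monocytes/Mφs at 24 h over naïve and at 72 h over 24 h. At 24 h 70 of 75 nuclear members lie above 1 and 11 of 11 mitochondrial members below it, and Cox7a2l stands apart with 0.454 and then 2.28.

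The promoter motifs did not separate the members called higher at 24 h from the others. Among 30 members called higher that have a promoter in the table, 8 held the NRF-1 letters and 8 the ETS core. Among the 33 tested members that were not called higher, the counts were 8 and 9. Nrf1 itself was measured at 14.2 CPM in naïve monocytes/Mφs, 19.8 at 24 h and 25.5 at 72 h.

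Cox7a2l (chr17:83501918-83517330) ran against most other nuclear members at both intervals. Its protein, also called SCAF1, is known as a factor that can join complexes III and IV into a supercomplex. Neither the protein nor supercomplexes were measured here, so whether it does so in these mice is not known from these data. In monocytes/Mφs Cox7a2l stood at 617 CPM (550–691) before manipulation, 280.4 (270–292) at 24 h and 638 (611–667) at 72 h. It was the only tested nuclear member of this class called lower at 24 h, with a ratio of 0.454 (0.403–0.513), and the only one called higher from 24 h to 72 h, with 2.28 (2.15–2.42). The 24 h library held the lowest Cox7a2l level in each class measured at 3 time points: 635, 435 and 644 CPM in T/NK-like cells, 580.4, 489 and 631 in B-like cells, and 694, 402 and 539.8 in DC-like cells. The ratio at 24 h was 0.684 (0.529–0.876) in T/NK-like, 0.842 (0.635–1.10) in B-like and 0.579 (0.434–0.785) in DC-like cells, so its interval included 1 in B-like cells alone. As each time point is 1 library, the level of Cox7a2l and the library cannot be told apart.

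Within the monocyte/Mφ states the same order held wherever a state was present at both times. Cox7a2l stood at 299 CPM in Ly6c+ cells at 24 h and 641 at 72 h (ratio 2.14), at 399 and 569.8 in Ccr2+ intermediate cells (1.43), and at 177 and 401 in the Cxcl3+ state (2.26). In the naïve library it stood at 599 CPM in Cx3cr1+ and 719 in Cd206+ cells, and at 72 h at 760.3 in Cd206+ and 506 in Timp2+ cells. At 24 h the Fabp5+ and Ltc4s+ states stood at 233 and 231 CPM. Cox7a2l weighed heavily among the 14 assembly and supercomplex factors, whose sum was 888.5, 672 and 955 CPM over the time course. Summed over all 14 they had a ratio of 0.757 (0.687–0.836) at 24 h, and without Cox7a2l the other 13 had 1.45 (1.22–1.73), the direction of the subunits.

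Uqcrh (chr4:116066965-116075071), the hinge protein of complex III, followed Cox7a2l with a smaller difference. It stood at 719 CPM in naïve monocytes/Mφs, 574 at 24 h and 823 at 72 h, ratios of 0.799 (0.718–0.892) and 1.43 (1.37–1.503), neither of them called. T/NK-like cells gave 831, 790.2 and 767 CPM, B-like cells 702, 591 and 709, and DC-like cells 758, 577 and 680.4. The level at 24 h was thus the lowest of the 3 in B-like and DC-like cells but not in T/NK-like cells. Ndufa6, an accessory subunit of complex I, had the next highest ratio from 24 h to 72 h, 1.27 (1.19–1.36), from 309 to 393 CPM.

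**Figure D3:**
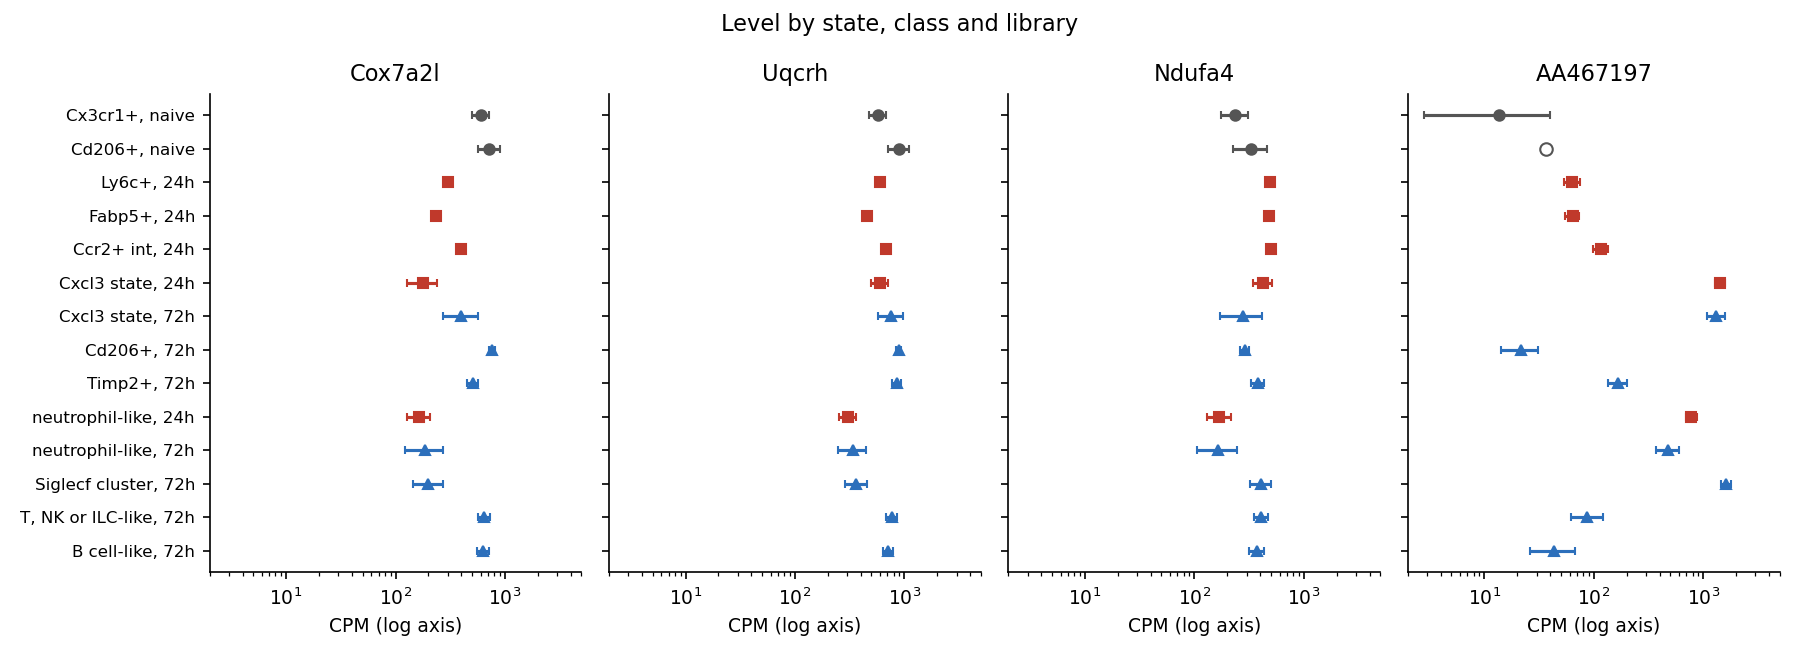
CPM (log axis) of Cox7a2l, Uqcrh, Ndufa4 and AA467197 by monocyte/Mφ state and library, with neutrophil-like cells at 24 h and 72 h. The Siglecf+ cluster, T/NK-like and B-like cells are drawn at 72 h only. Bars hold exact 95% Poisson intervals, and an open marker stands at the interval's upper bound where no UMI was found. For Cox7a2l each state drawn at 24 h lies below the naïve states, and AA467197 had 0 UMIs in naïve Cd206+ cells.

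All mitochondrial members that passed the minimum level were lower in monocytes/Mφs at 24 h than in the naïve library, by little. The 11 tested genes had ratios from 0.660 to 0.964 with 1 called lower, mt-Nd4l (60.7, 40.0 and 58.1 CPM). The genes for core subunits of complex IV stood at 4947, 4496 and 6150.0 CPM (mt-Co1), 2902, 2715 and 3204 (mt-Co2) and 5240.0, 4689 and 5566 (mt-Co3). For ATP synthase, mt-Atp6 stood at 6270.2, 5419 and 6265 CPM and mt-Atp8, at 46.6, 15.6 and 31.6, did not reach the minimum level. Complex III has mt-Cytb alone, at 2623, 2139 and 2476 CPM. Of the complex I genes, mt-Nd1 stood at 3107, 2986 and 2965 CPM, mt-Nd2 at 949, 705 and 856, mt-Nd4 at 1696, 1493 and 1839, mt-Nd5 at 180.1, 174 and 220.4, and mt-Nd6 at 10.1, 5.90 and 6.46. These genes lay lowest at 24 h, apart from mt-Nd1, which was lowest at 72 h. From 24 h to 72 h, mt-Nd3 was called higher, with levels of 332, 241 and 438 CPM and a ratio of 1.82 (1.70–1.95). The deposited tables hold no cell above 10% mitochondrial UMIs, so cells with higher values do not enter these levels. With cells above 5% left out as well, the mitochondrial ratio was 0.948 at 24 h over naïve and 1.09 at 72 h over 24 h.

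Monocyte/Mφ-like cells were clustered again into states, of which 6 were named from marker lists and the others are called by a leading gene (Ltc4s+, Cxcl3+) or described. Igkc, an immunoglobulin gene, led the Cx3cr1+ state together with Cx3cr1 and Tmem119, and Igha was among the genes leading the Fabp5+ state. The Cx3cr1+ cells of the naïve library had the lowest nuclear sum and the states present at 24 h had similar, higher sums. The nuclear sum was 16892 CPM (16353–17444) in 72 naïve Cx3cr1+ cells and 24167 (23213–25149) in 28 naïve Cd206+ cells. At 24 h it was 29369 CPM in Ly6c+ monocytes, 29827 in Fabp5+ Mφs, 30859 in Ccr2+ intermediate cells, 30397 in the Ltc4s+ state and 27762 in the Cxcl3+ state. These 5 states span a narrow range, with Fabp5+ cells at 1.02-fold of the Ly6c+ level. At 72 h it was 28838 CPM in Ly6c+, 27683 in Ccr2+ intermediate, 23522 (23260–23786) in Cd206+ and 27609 (27191–28033) in Timp2+ cells. Cd206+ cells did not differ beyond counting error between 72 h and the naïve library (0.973, 0.934–1.01). A further state of 236 cells at 24 h with a median of 2140.5 UMIs, the shallowest of this class, had the highest nuclear sum, 33014 CPM, and 34493 CPM of mitochondrial members. With it and the state carrying B cell genes left out, the ratio of the class at 24 h over naïve was 1.42.

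Naïve Cx3cr1+ cells stood at 0.699-fold (0.664–0.736) of naïve Cd206+ cells for the nuclear sum and 0.822-fold for the mitochondrial sum. Of 74 tested nuclear members 31 were called lower, against a background of 27.2%, and 2 higher, against 20.8%. The lowest ratios belonged to accessory subunits of complex I, Ndufb5 with 86.3 against 289.7 CPM (0.298, 0.158–0.549), Ndufs5 (0.398, 0.180–0.869) and Ndufb7 (0.414, 0.246–0.695). The 6 B cell markers summed to 7508 CPM in the Cx3cr1+ cells and to 420 in the Cd206+ cells, in which Cd79a and Ms4a1 were at 0. Without cells that held a UMI of Cd79a, Cd79b or Ms4a1, the nuclear ratio was 0.701 (0.664–0.741) over 57 and 26 cells. Igkc and Ighm were not part of this filter, and the marker level of the cells left is not given. The filter therefore cannot tell the part of immunoglobulin RNA. Against the same naïve Cx3cr1+ cells, Ly6c+ monocytes at 24 h had 54 of 76 members called higher, with a background of 38.6%. The largest ratios were those of Cox5a, 687 against 191 CPM (3.60, 2.65–5.02), Ndufb5 (3.10, 1.97–5.18) and Ndufs5 (3.03, 1.79–5.60), and the smallest was Cox7a2l at 0.4998 (0.414–0.607).

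Members of both genomes took a larger share of UMIs in Timp2+ Mφs than in Cd206+ Mφs of the same library. At 72 h the ratio was 1.17 (1.15–1.196) for the nuclear sum and 1.19 for the mitochondrial sum, which reached 36644 CPM in Timp2+ against 30755 in Cd206+ cells. Cells above 5% mitochondrial UMIs made up 32.8% of the Timp2+ and 15.6% of the Cd206+ cells. Timp2+ cells were also shallower, with a median of 4523 against 5244 UMIs. Across cells the mitochondrial share was lower in deeper cells (correlation rho -0.588 in Timp2+ and -0.473 in Cd206+ cells). The part of depth in the ratio was not tested. The mitochondrial ratio was 1.15 without mt- and ribosomal protein genes in the denominator and 1.29 as a mean over cells. Of 74 nuclear members 7 were called higher, fewer than the background of 19.4%, and 1 lower, with a background of 11.5%. The largest ratios were Atp5g3 (288 against 151 CPM, 1.90), Cox5a (685 against 411, 1.67) and Ndufc1 (268 against 164, 1.63), and the lowest was Cox7a2l (0.666, 0.584–0.758). The Cxcl3+ state had the highest mitochondrial level of the states at 72 h, 38887 CPM in 23 cells, against 25860 in 46 cells at 24 h.

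**Figure D4:**
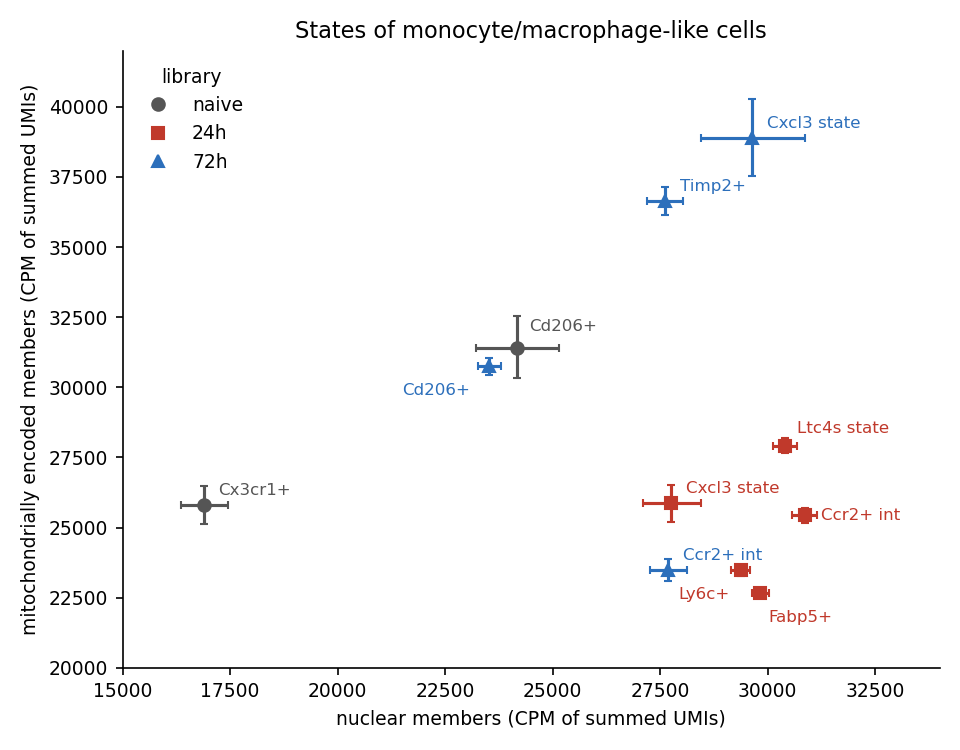
Summed nuclear CPM plotted against summed mitochondrial CPM for monocyte/Mφ states with at least 20 cells in a library, coloured by library, with exact 95% Poisson intervals. Ly6c+ cells of 72 h, the shallow state of 24 h and the state carrying B cell genes are not drawn. Naïve Cx3cr1+ cells lie lowest on the nuclear axis at 16892 CPM, the 5 states listed for 24 h lie between 27762 and 30859, and Timp2+ cells lie at 27609 nuclear and 36644 mitochondrial CPM.

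Neutrophil-like cells were low in transcripts of both genomes, and lower in the mitochondrial ones. At 24 h their nuclear sum was 14650 CPM (14279–15029) against 30084 in monocytes/Mφs of the same library, a ratio of 0.487 (0.474–0.4997). The mitochondrial sum was 3693 CPM (3508–3886) against 25117, a ratio of 0.147 (0.140–0.155). Of 74 tested nuclear members 65 were called lower, against a background of 41.4%, and their median ratio was 0.393 while that of all genes was 0.844. Each of the 10 tested mitochondrial members was called lower. At 72 h the ratios were 0.625 and 0.198, with 48 of 70 nuclear members called lower and a background of 34.2%. Neutrophil-like cells were shallow, with a median of 890.5 UMIs at 24 h against 5924.5 in monocytes/Mφs. In cells thinned to 1500 UMIs and clustered anew, which left 43 neutrophil-like cells, the nuclear ratio was 0.306 (0.282–0.331) and the mitochondrial ratio 0.159. The 11 monocyte/Mφ markers summed to 3956 CPM in neutrophil-like cells at 24 h (none at 0) and to 17251 in monocytes/Mφs, and their part in the levels was not tested. Cytosolic ribosomal protein genes took 4.59% of UMIs in neutrophil-like cells and 18.4% in monocytes/Mφs.

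The nuclear members were not lowered evenly in neutrophil-like cells. The lowest ratios at 24 h were those of Ndufa5 (12.4 against 117 CPM, 0.106), Ndufc2 (32.3 against 253, 0.128) and Sdhc, a membrane anchor of complex II (14.9 against 105, 0.142). At the other end Cox8a, the smallest subunit of complex IV, stood at 1381 CPM in neutrophil-like cells and 1316 in monocytes/Mφs (1.05, 0.962–1.14), Ndufa3 at 310.4 and 318 (0.978, 0.811–1.17), and Ndufb9 at 283 and 334 (0.848, 0.697–1.02). In the thinned cells, which are also the 43 deepest of the 408, their ratios were 0.588, 0.567 and 0.358. Across 73 tested members with a known length, the ratio was lower for genes with a longer protein-coding transcript (Spearman's rho -0.435), while rho was 0.227 across all genes. This is a description across genes of the same libraries, which share depth and capture and are not independent.

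Within the neutrophil-like cells of 24 h, a cluster of 48 cells led by Acod1 and Il1f9 had lower levels than the 360 cells led by Retnlg. The nuclear sums were 6540 CPM (5954–7168) and 16353 (15921–16793), a ratio of 0.39996 (0.363–0.440), and the mitochondrial sums were 2805 and 3879, a ratio of 0.723. Of 60 tested nuclear members 57 were called lower, against a background of 45.1%, with a median of 0.375 against 0.719 over all genes. The Acod1 cluster was the deeper of the pair, with a median of 1409.5 UMIs against 860.5. Its lowest ratios, for Ndufa1, Ndufs5 and Ndufs7, each rested on 14.3 CPM, which is 1 UMI.

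At 72 h the Siglecf+ cluster combined the highest nuclear sum of the classes with a low mitochondrial sum. Its 203 cells had 37243 nuclear and 8368 mitochondrial CPM, ratios to monocytes/Mφs of 1.45 (1.42–1.49) and 0.278. Of 73 nuclear members 29 were called higher, with a background of 42.5%, and 5 lower, with 20.8%, and the members' median ratio of 1.32 was close to the 1.33 of all genes. By complex the summed ratio was 1.69 for IV, 1.62 for I, 1.31 for V, 1.13 for III and 0.818 for II. Subunits of complex IV had the largest gaps in CPM: Cox7a2 stood at 1551 against 405 CPM (3.83, 3.38–4.33), Cox6a1 at 1613 against 507 (3.18, 2.82–3.58) and Cox8a at 2759 against 1206 (2.29, 2.09–2.497). Cox7a2 and Cox6a1 are the isoforms found outside heart and skeletal muscle, and the Cox6a1 promoter is the first of those printed above. Ndufs5 of complex I followed with 447 against 141 CPM (3.18, 2.52–3.98). Lowest were Cox7a2l (199.8 against 638 CPM, 0.313), Uqcrh (362 against 823, 0.439) and Sdha (47.6 against 103, 0.461). Across 72 members with a known length, the ratio was lower for longer coding transcripts (Spearman's rho -0.421, with a median ratio of 1.71 in the shorter and 1.14 in the longer members), whereas rho across all genes was 0.028.

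Against neutrophil-like cells, which are similarly shallow (median 1248 against 955 UMIs at 72 h), the Siglecf+ cluster stood 2.32-fold (2.22–2.43) higher for the nuclear and 1.40-fold for the mitochondrial sum. Of 71 nuclear members 65 were called higher, against a background of 40.7%, and their median ratio was 2.46 against 1.27 for all genes. The largest ratios were those of Ndufa12 (12.1, 3.11–104, with 2 UMIs in the neutrophil-like cells), Atp5g2 (528 against 62.0 CPM, 8.52, 4.33–19.1) and Uqcrb (404 against 68.8, 5.87, 3.04–12.7). The smallest were those of Sdha (0.691), Sdhd (0.777) and Uqcrh (1.07), whose intervals included 1. At 24 h the cluster held 29 cells with 26288 nuclear CPM (24148–28567), below monocytes/Mφs (30084) and DC-like cells (27537), and the level at 72 h was 1.42-fold (1.30–1.55) that of 24 h.

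AA467197, which is no member by symbol, encodes a small mitochondrial protein (Nmes1) known to take the place of Ndufa4 in complex IV. AA467197 (chr2:122636986-122641191) stood at 22.3, 126 and 92.3 CPM in monocytes/Mφs, 777 and 475 in neutrophil-like cells at 24 h and 72 h, and 2742 and 1608 in the Siglecf+ cluster. Ndufa4 (chr6:11900292-11907497) stood at 309.7, 495 and 333 CPM in monocytes/Mφs, 169 and 165 in neutrophil-like cells and 426 and 404 in the Siglecf+ cluster. AA467197 was thus the higher of the pair in neutrophil-like cells and the Siglecf+ cluster, and Ndufa4 in monocytes/Mφs. Among the states the Cxcl3+ cells stood apart, with 1419 CPM of AA467197 at 24 h and 1314 at 72 h beside 423 CPM of Ndufa4 at 24 h. AA467197 is among the genes that lead this cluster, so that level describes the cluster. Naïve Cd206+ cells held 0 UMIs (upper bound 36.9 CPM), and at 72 h Cd206+ and Timp2+ cells held 21.4 and 167 CPM.

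The make-up of the mitochondrial transcripts also differed between classes. The share of mt-Co1 among mitochondrial member UMIs was 17.4%, 17.9% and 20.4% in monocytes/Mφs of the 3 libraries. It was 23.3% (exact 95% binomial interval 21.1–25.5) in neutrophil-like cells at 24 h and 30.3% (27.2–33.4) at 72 h, and 9.55% (8.22–11.0) in the Siglecf+ cluster at 72 h. In that cluster mt-Cytb made up 13.4% (11.9–15.1) and mt-Nd3 5.34% (4.34–6.5002), against 8.23% and 1.46% in monocytes/Mφs of the same library. At 72 h T/NK-, DC- and B-like cells had 18.7%, 18.2% and 16.9% of mt-Co1, so neutrophil-like cells lay above and the Siglecf+ cluster below the other classes. The mt-Co1 gene lies at chrM:5328-6872.

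**Figure D5:**
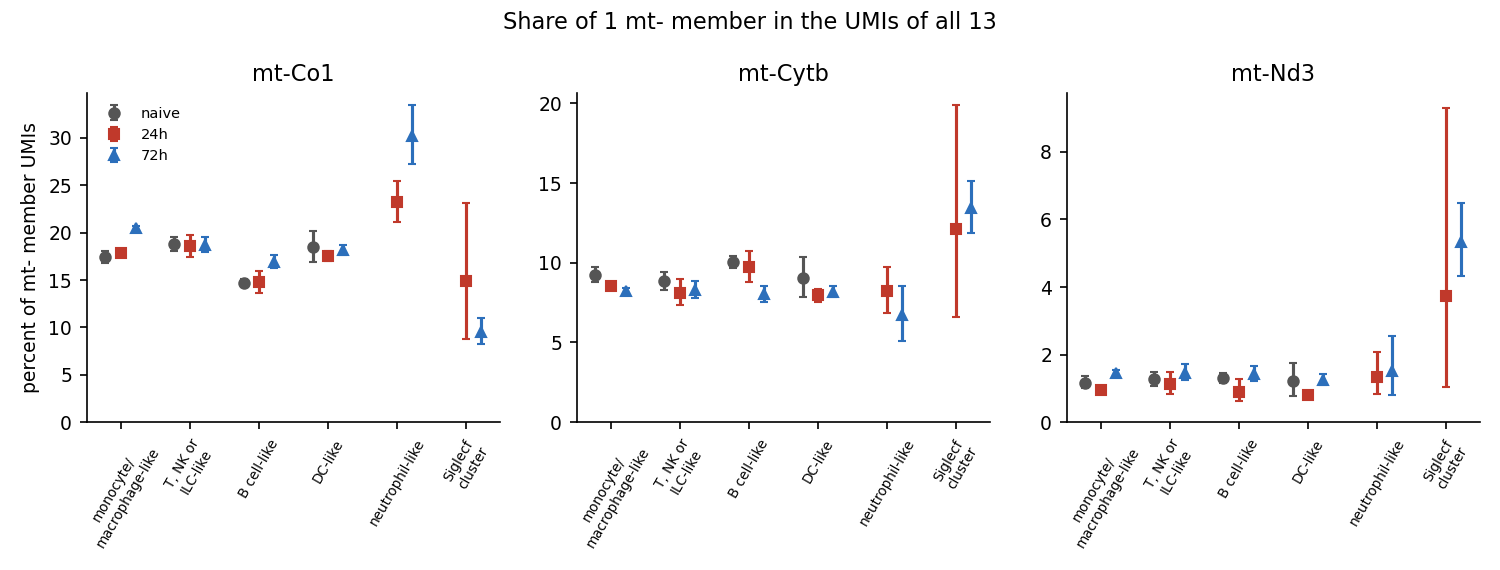
Share (percent) of mt-Co1, mt-Cytb and mt-Nd3 among all mitochondrial member UMIs by cell class and library, with exact 95% binomial intervals. At 72 h mt-Co1 takes 20.4%, 30.3% and 9.55% of these UMIs in monocytes/Mφs, neutrophil-like cells and the Siglecf+ cluster.

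For the nuclear sum, the ratio of 24 h to naïve was nearer to 1 in the lymphoid and dendritic classes than in monocytes/Mφs, whereas for the mitochondrial sum it was 1.09 in T/NK-like, 0.864 in B-like and 0.841 in DC-like cells. The nuclear sum of T/NK-like cells was 26551, 25365 and 24699.5 CPM, a ratio to naïve of 0.955 at 24 h and 0.930 at 72 h. Most naïve T/NK-like cells (130 of 188) were of the cytotoxic cluster led by Gzma and Gzmb, and most later ones (65 of 71 and 108 of 136) of the cluster led by Thy1. Within the Thy1 cluster the nuclear ratios to naïve were 1.001 (0.959–1.05) and 0.968 (0.931–1.01), and the mitochondrial ratios 0.908 (0.870–0.948) and 0.915 (0.881–0.949). DC-like cells gave 26819, 27537 and 28853 CPM. B-like cells went from 20783 CPM in the naïve library to 23499 at 24 h and 26482 at 72 h, a ratio of 1.27 at 72 h with 18 of 75 members called higher and a background of 19.2%. This class is a mixture: cells led by cell-cycle genes (Pclaf, Stmn1, Top2a) had 25540 CPM in the naïve library and 29066 at 72 h, and the resting cells 17540, 18243 and 19230 over the 3 libraries. Dividing cells stood 1.46-fold above resting cells in the naïve library and 1.51-fold at 72 h. In the naïve library 34 of 76 members were called higher, a share near the background of 43.3%. Their median ratio there was 1.44, against 1.35 over all genes. At 72 h 38 of 73 were called higher (background 34.6%), with a median of 1.54 against 1.18 over all genes. Among resting cells the ratio of 72 h to naïve was 1.10, and that of the mitochondrial sum 0.977 (0.941–1.01). In the naïve dividing cells the largest ratios were Ndufa9 (2.78), Ndufa12 (2.70) and Atp5g3 (2.61). Cox6a2, an isoform of heart and skeletal muscle, stood at 189 CPM in the 20 naïve DC-like cells (15 UMIs), 14.8 at 24 h and 0 at 72 h.

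Other gene groups of energy metabolism were compared in the same way. In monocytes/Mφs at 24 h over naïve, 10 of 11 tested glycolysis genes were called higher (background 27.7% of all genes), with a median ratio of 2.69 and a sum of 7011 against 2923 CPM. Ldha (lactate dehydrogenase) stood at 295.5, 798 and 426 CPM and Pgk1 at 95.1, 416 and 184 over the time course. All 4 tested electron carrier and supply genes were called higher, among them Cycs (cytochrome c; 83.0, 261 and 152 CPM) and Cyc1 of complex III (76.9, 151 and 95.9). Of 42 tested mitochondrial ribosome genes 22 were called higher, of 10 protein import genes 5, of 6 genes for the copper and haem assembly of complex IV 2, and of 7 TCA cycle genes 2, and the shares of these last 2 lists are near the background. The mtDNA expression genes had 2 of 2 called higher (Slirp and Ssbp1) and the regulators 1 of 3, Hif1a, at 72.9, 192 and 179 CPM. From 24 h to 72 h, 8 of 11 glycolysis, 13 of 46 mitochondrial ribosome, 4 of 10 import, 2 of 11 TCA cycle and 2 of 4 electron carrier genes were called lower, against a background of 16.8%, to which the TCA cycle share was close.

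In Cxcl3+ cells at 24 h, 10 of 13 glycolysis genes were called higher than in Ly6c+ monocytes, against a background of 12.9%, with a median of 1.92. The nuclear oxidative phosphorylation sum of the same cells was 0.945-fold, with 6 of 76 members called lower, fewer than the background of 18.6%, and a median of 0.914 against 0.944 over all genes. The mitochondrial sum was 1.10-fold. In Timp2+ over Cd206+ Mφs 7 of 10 glycolysis genes were called higher, against a background of 19.4%, with a median of 2.08. In the Siglecf+ cluster over monocytes/Mφs at 72 h, 10 of 13 import genes and 5 of 8 genes for the copper and haem assembly of complex IV were called higher, against a background of 42.5%, with medians of 1.96 and 1.84 and a median of 1.33 over all genes. Among the latter Cox17, the copper chaperone of complex IV, stood at 1080 CPM against 173.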

How the data were processed

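Cells were CD45+ cells sorted from the muscularis externa of naïve mice and of mice 24 h and 72 h after manipulation, 1 library each. The deposited tables hold UMI counts per gene and cell. The authors aligned reads to mm10 (GRCm38) with Cell Ranger 3.0.2 and removed cells under 200 genes or above 10% mitochondrial UMIs. No further cell was removed here, and doublets were kept.

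Cells were clustered in R 4.3.3 with Seurat 5.3.0 (log-normalization, 2000 variable genes of which 1999 remained without members, 30 components, 20 neighbours, resolution 0.8, seed 0), and monocyte/Mφ-like cells again with 20 components, which gave 16 and 10 clusters. A cluster was named when at least 3 markers of a list were found in 10% of its cells and at 2-fold the level of other cells. UMIs were summed per group and library in Python 3.11.15 (scipy 1.17.1, pandas 2.3.3). Ratios carry exact conditional Poisson intervals, and a group at 0 counts as 3 UMIs. Gene positions and coding lengths are from GENCODE M21 (GRCm38). No p-value is given, as each group is 1 library. On simulated counts for 2431 genes of monocytes/Mφs at 24 h over naïve, 200 of them changed 2-fold, intervals covered the true ratio for 96.42% of genes, 97% of changed and 1.927% of unchanged genes passed the 1.5-fold threshold.

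The member rule, gene lists and comparisons were chosen with earlier results of these data known. Members named with values are the 3 largest and 3 smallest ratios of a comparison, the 3 highest of each complex, all mitochondrial members, listed tissue isoforms and AA467197, and Nrf1, Cox6a2 in DC-like cells and the shares of mt-Co1, mt-Cytb and mt-Nd3 were singled out after their values were seen. Alternatives were the cell filter, denominator, weight of cells, doublets (Scrublet scores in scanpy 1.11.5), resolution (0.5 and 1.2), variable genes, depth, threshold and minimum level.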

Additional observations from a re-analysis of the deposited data

Results flagged for a closer look

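The change of the nuclear sum from the naïve library to 24 h went in different directions between classes, with ratios of 1.44 in monocytes/Mφs, 1.13 in B-like and 0.955 in T/NK-like cells. The mitochondrial sum over the same interval had ratios of 1.09 in T/NK-like cells, 0.886 in monocytes/Mφs and 0.864 in B-like cells. From naïve to 72 h the nuclear ratios were 1.23 in monocytes/Mφs, 1.27 in B-like and 0.93 in T/NK-like cells, and the mitochondrial ratios 1.06, 0.832 and 1.04. These differences between classes were not tested, since each time point is 1 library and the classes share it. The make-up of the classes also differed between libraries. Within the Thy1 cluster of T/NK-like cells the mitochondrial ratio was 0.908 at 24 h and 0.915 at 72 h, below 1 where that of the class was above it, and within the cytotoxic cluster it was 0.908 at 72 h. In the Thy1 cluster the nuclear ratio was 1.001 at 24 h. Among resting B-like cells the mitochondrial ratio at 72 h was 0.977.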

How the results depend on the processing

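No paired analysis was possible because each time point is 1 library, and for the same reason no library could be left out. With cells thinned to 1500 UMIs, the ratios of 24 h over naïve in monocytes/Mφs were 1.52 (nuclear) and 0.951 (mitochondrial), that of 72 h over 24 h was 1.23 (mitochondrial), and those of neutrophil-like cells over monocytes/Mφs were 0.306 and 0.159. A stricter cell filter (at least 500 genes, at most 5% mitochondrial UMIs) gave 0.948 and 1.09 for the mitochondrial ratios over time, and 0.334 and 0.139 for neutrophil-like cells. A new clustering under this filter named 79 neutrophil-like cells at 24 h, in place of 408. The unnamed cluster with Siglecf among its leading genes held 84 cells at 24 h, in place of 29. The boundary between these clusters thus depended on the filter. Without mt- and ribosomal protein genes in the denominator, the ratios of 72 h over 24 h were 0.901 and 1.26, and those of neutrophil-like cells 0.405 and 0.122. As a mean over cells they were 1.47 (nuclear, 24 h over naïve), 0.862 and 1.27 (72 h over 24 h), and 0.518 and 0.139 (neutrophil-like). A 2-fold threshold gave 9 members called higher in place of 38, and the other alternatives gave 38 to 48. The mitochondrial ratio of dividing over resting naïve B-like cells turned from 1.07 to 0.985 with the other denominator. The cause was not tested for any of these. Alternatives added after seeing the data were the 2 states left out, the cells with B cell transcripts left out, and those on named members, states, the Siglecf+ cluster and assembly factors. For Cox7a2l they gave 0.449 to 0.481 at 24 h over naïve and 2.06 to 2.41 at 72 h over 24 h. Of all alternatives 189 stayed within the counting interval or within 1.5 times a count, 57 moved beyond it in the same direction and 1 turned. Depth limits the neutrophil-like and Siglecf+ cells most, with medians of 756 to 1248 UMIs.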
